A study of Mus musculus with 6 samples.

Results

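The 10 genes described here encode the costimulatory receptors Cd28, Icos, Cd226, Cd27, Tnfrsf4 (OX40), Tnfrsf9 (4-1BB) and Tnfrsf18 (GITR) and the TNF family ligands Tnfsf8 (CD30 ligand), Fasl (Fas ligand) and Tnfsf10 (TRAIL). They were chosen by symbol, and all 10 were found among the 17744 genes of the deposited table. Expression was measured by RNA-seq of CD8 T cells sorted from mouse spleen on CD45, CD3 and CD8a, in 3 libraries labelled control and 3 labelled with irradiation by focused ultrasound, a beam of sound brought to a focus inside the body. The control libraries are labelled wild type. For the ultrasound libraries the genotype field repeats the treatment, so their genotype is not stated, and no label used here gives strain, age, sex, tumour status, dose or time after treatment. No label says whether the 3 libraries of a group came from separate animals, so p-values measure the spread between these libraries, which may be technical.

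A T cell that meets antigen needs a second, costimulatory signal to divide and survive. Cd28, Icos and Cd226 belong to the immunoglobulin superfamily: Cd28 binds Cd80 and Cd86 and recruits PI 3-kinase, Icos binds Icosl, and Cd226 binds Pvr and Nectin2 on target cells. Cd27, Tnfrsf4, Tnfrsf9 and Tnfrsf18 belong to the TNF receptor superfamily, recruit TRAF adaptors and activate NF-κB. Of the ligands, Tnfsf8 binds Tnfrsf8, while Fasl and Tnfsf10 trigger cell death through Fas and Tnfrsf10b.

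The libraries did not form 2 tight groups. On the first principal component, with 70.8% of the variance, ultrasound 1 lay at -0.53, between the controls (-28.60 to -15.81) and ultrasound 2 and 3 (33.22 and 39.71). Reads assigned to the genes of the deposited table, recovered from its values, came to 35024080 to 38113103 per library. The 10 CD8 T cell markers in the table summed to 2589 to 2727 FPKM in controls and 2260 to 2885 in ultrasound libraries, and none was at 0 in any library. Besides Cd8a and Cd8b1, this list holds genes that CD4 T cells also express, so its sum does not measure the CD8 share. Cd8a averaged 302 FPKM in controls and 270 in ultrasound libraries, Cd8b1 541 and 479, and Cd4 51.0 and 62.5. The groups overlap for each. FPKM is a fragment count divided by gene length and library depth. Markers of other cells were present in every library. Monocyte and macrophage markers (10 genes) summed to 197 to 373 FPKM in controls and 518 to 692 in ultrasound libraries. Neutrophil markers (10 genes) summed to 189 to 577 in controls, 2320 in ultrasound 1 and 649 and 682 in ultrasound 2 and 3. B cell markers (8 genes) stood at 215 to 329 in controls, 160 in ultrasound 1 and 851 and 738 in ultrasound 2 and 3, and dendritic cell markers (8 genes) at 21.4 to 45.2, 29.8, 75.3 and 71.7. No marker of these lists was at 0 in any library.

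**Figure D1:**
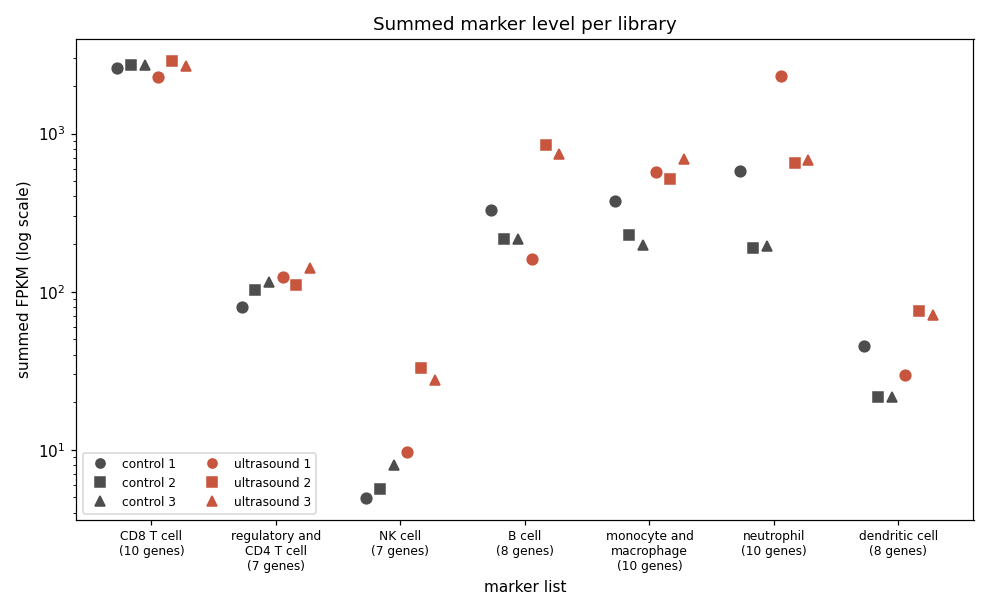
Summed FPKM (log scale) of marker genes of 7 cell types in each of the 6 libraries; grey symbols are controls, red symbols ultrasound libraries, and shapes are replicate numbers. The CD8 T cell markers lie between 2260 and 2885 FPKM throughout, the monocyte and macrophage markers are higher in each ultrasound library than in each control, and the B cell markers are lowest in ultrasound 1.

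Among the 10 genes, Cd28 and Cd226 fell in the ultrasound libraries and none rose. Cd28 fell 2.62-fold and Cd226 2.15-fold by mean FPKM. Icos was 1.44-fold lower without passing the test, and the 4 TNF receptors and 3 ligands did not pass it either. The test was limma on log2(FPKM + 1) of the 10655 genes with at least 1 FPKM in at least 3 libraries, with Benjamini-Hochberg adjustment over all of them and a threshold of 0.05. All 10 genes entered it, and 2 passed, where 8.11% of all tested genes did. The 2 calls are both in the lower direction, in which 1.56% of all tested genes were called. For 3 of the 10, Cd28, Icos and Cd226, every ultrasound library lay below every control, as it did for 8.96% of tested genes, and for none did every ultrasound library lie above every control, against 25.9% of tested genes. The median log2 change of the 10 genes was -0.17, that of all tested genes 0.09.

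**Figure D2:**
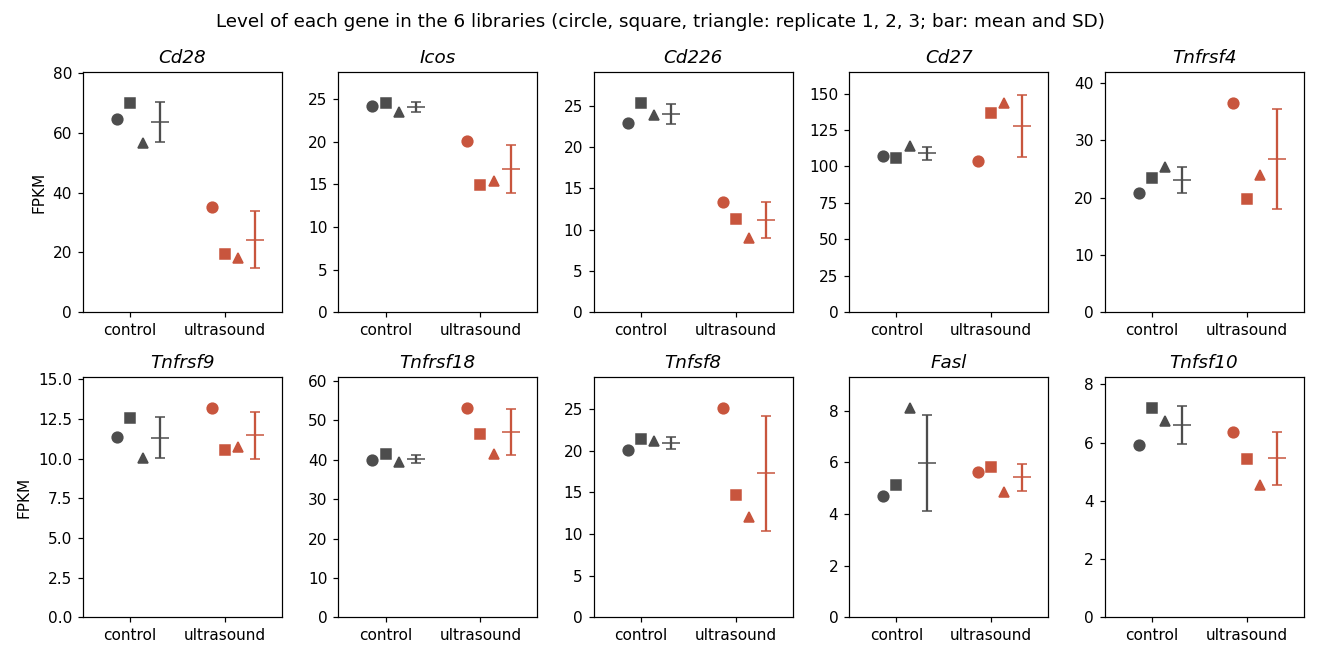
FPKM (linear axes from 0) of the 10 genes in each library; circles, squares and triangles are replicates 1, 2 and 3, and bars give mean and SD of 3 libraries. For Cd28, Icos and Cd226 the 3 ultrasound libraries lie below the 3 controls, and for the other 7 genes the groups overlap.

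Cd28 (NCBI Gene 12487; chromosome 1, 60746388 to 60773359 in RefSeq's GRCm38.p6), which encodes the main costimulatory receptor of naive T cells, had 64.5, 69.9 and 56.7 FPKM in controls 1, 2 and 3 and 35.1, 19.5 and 18.2 in ultrasound 1, 2 and 3. Ultrasound 1 thus kept 55.1% of the control mean and ultrasound 2 and 3 together 29.6%. The group means were 63.7 ± 6.66 and 24.3 ± 9.41 FPKM (SD, n = 3 each). On the log2 scale Cd28 changed by -1.41 (standard error 0.24, limma adjusted p 0.0311). These values rest on 3160 to 11150 reads per library. Less RNA per cell and fewer cells that carry the transcript cannot be told apart in bulk libraries. With each library centred on the CD8 T cell markers the log2 change was -1.36 (limma adjusted p 0.0484, a fit in which 0.46% of all genes were called lower). That centring does not correct for the share of CD4 T cells. The adjusted p was 0.0594, 0.159, 0.144, 0.0896 and 0.102 without control 1, 2 or 3 or ultrasound 2 or 3, and 0.000111 without ultrasound 1. Ultrasound 1 alone against the controls gave -0.84 (limma adjusted p 0.0536, its spread assumed to be that of the controls).

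Icos (NCBI Gene 54167; chromosome 1, 60960773 to 61000322), which encodes a receptor induced on activated T cells, lay in a narrow band in controls, at 24.2, 24.5 and 23.5 FPKM. In the ultrasound libraries it was at 20.05, 14.9 and 15.4 FPKM. All 3 were lower than every control, with ultrasound 1 nearest to them. The means were 24.1 ± 0.53 and 16.8 ± 2.84 FPKM (SD, n = 3 each), and the log2 change of -0.51 (standard error 0.12) missed the threshold with limma adjusted p 0.0529. It passed with upper-quartile factors (limma adjusted p 0.0467, where 1.8% of all genes were called lower), with voom on the recovered reads (0.0461, where 2.35% were) and without ultrasound 1 (0.000600). It did not pass centred on the T cell markers (log2 change -0.46, limma adjusted p 0.189). Nor did it without control 1, 2 or 3 (limma adjusted p 0.134, 0.200 and 0.178) or ultrasound 2 or 3 (0.172 each). Over all 17 alternatives the adjusted p ran from 0.000600 to 0.200. In the authors' deposited table the log2 fold changes of Cd28 and Icos are -1.51 and -0.65, with q of 4.91e-06 and 0.00190, and 4.98% of its genes have a q under 0.05 and a lower level.

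Between Cd28 and Icos on chromosome 1 lies Ctla4 (60909025 to 60915832), 136 kb from Cd28 and 44.9 kb from Icos, which encodes the inhibitory receptor that competes with Cd28 for Cd80 and Cd86. Ctla4 had 85.95, 88.8 and 81.45 FPKM in controls, 76.8 in ultrasound 1 and 14.4 and 15.75 in ultrasound 2 and 3. Ultrasound 1 was thus just under the lowest control, and the other two were at 17.6% of the control mean. The log2 change was -1.67 with standard error 0.59, short of the threshold at limma adjusted p 0.116. Without ultrasound 1 it was -2.43 (limma adjusted p 1.06e-05), and ultrasound 1 alone gave -0.15. The ratio of Ctla4 to Cd28 in FPKM was 1.27 to 1.44 in controls, 2.19 in ultrasound 1 and 0.737 and 0.865 in ultrasound 2 and 3, so the ultrasound libraries lay on both sides of the controls. The ratio of Cd28 to Icos was 2.41 to 2.85 in controls and 1.75, 1.31 and 1.18 in ultrasound 1, 2 and 3, with no overlap. Cd28 by itself already separates the groups, so this ratio is not a separate result. How often the ratio of any pair of genes separates the groups was not counted.

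Cd226 (NCBI Gene 225825; chromosome 18, 89176954 to 89272232), which encodes the activating receptor DNAM-1, showed the lowest limma adjusted p of the 10 genes. It was at 22.9, 25.3 and 23.8 FPKM in controls and at 13.4, 11.2 and 8.96 in ultrasound libraries. All 3 ultrasound libraries were well under the lowest control, and ultrasound 1 was closer to the other two than it was for Cd28. The means were 24.0 ± 1.20 and 11.2 ± 2.21 FPKM (SD, n = 3 each). On the log2 scale Cd226 changed by -1.05 (standard error 0.14, limma adjusted p 0.0297). Centred on the T cell markers the change was -0.999 (limma adjusted p 0.0396), and in ultrasound 1 alone -0.80 (limma adjusted p 0.0439). The adjusted p was 0.159, 0.144, 0.0672 and 0.0858 without control 2 or 3 or ultrasound 2 or 3, and 0.0295 without control 1. In the authors' deposited table Cd226 has a log2 fold change of -1.23 and q of 2.03e-09.

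The inhibitory receptors Tigit and Cd96 bind the same ligand, Pvr, as Cd226. Tigit had 20.8, 19.2 and 13.4 FPKM in controls and 22.7, 12.5 and 10.9 in ultrasound libraries (log2 change -0.24, limma adjusted p 0.564). Cd96 had 66.3, 74.7 and 68.9 and 48.5, 75.9 and 59.3 FPKM (log2 change -0.21, limma adjusted p 0.387). The groups overlap for both genes. The ratio of Cd226 to Cd96 was 0.339 to 0.346 in controls and 0.276, 0.148 and 0.151 in ultrasound 1, 2 and 3. The ratio of Cd226 to Tigit was 1.104 to 1.78 in controls and 0.588 to 0.897 in ultrasound libraries. Neither ratio overlaps between the groups. Cd226 by itself already separates them, so the ratios are not separate results. NK cells also express Cd226, and the 7 NK cell markers summed to 4.96 to 8.04 FPKM in controls and 9.66, 32.7 and 27.5 in ultrasound 1, 2 and 3. The part of NK cells in the level of Cd226 was not tested. Several of those markers are Klra genes with close copies, whose reads may be shared.

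Cd27 (NCBI Gene 21940; chromosome 6, 125232620 to 125237136), a TNF receptor of naive and memory T cells that binds Cd70, was the most abundant of the 10 in both groups. It had 107, 106 and 114 FPKM in controls and 104, 137 and 143 in ultrasound libraries. Ultrasound 1 lay under every control and the other two above them. The log2 change of 0.22 (95% interval -0.11 to 0.54) did not pass (limma adjusted p 0.297). Without ultrasound 1 it was 0.36 (limma adjusted p 0.00468), in a fit that called 34.1% of all genes higher. Ultrasound 1 alone gave -0.07. Some B cells and NK cells also express Cd27, and markers of both were likewise highest in ultrasound 2 and 3. Their part in its level was not tested. Cd70 was not analysed here.

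**Figure D3:**
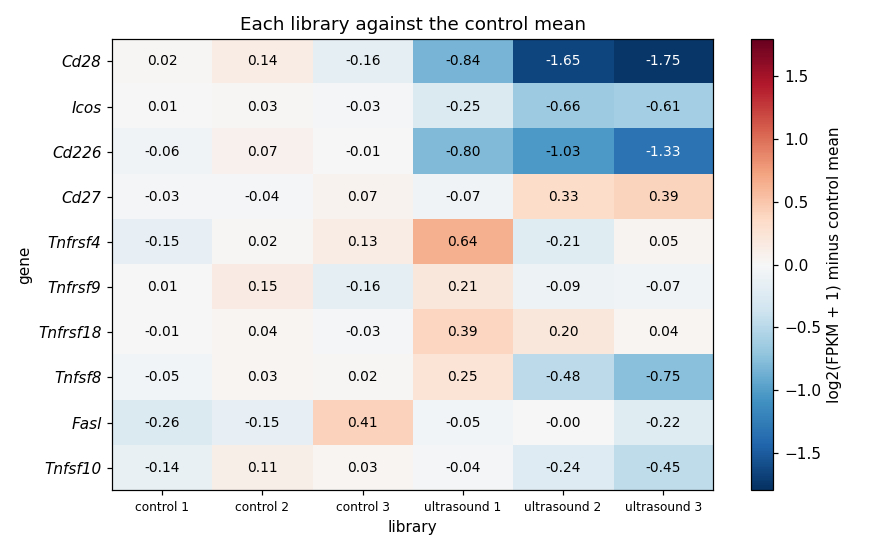
Difference in log2(FPKM + 1) between each library (columns) and the mean of the 3 controls, for the 10 genes (rows); blue is lower and red higher. Cd28 and Cd226 are below the control mean in each ultrasound library, while Tnfsf8, Tnfrsf4 and Tnfrsf9 are higher in ultrasound 1 than in ultrasound 2 and 3.

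Tnfrsf4 and Tnfrsf18, which encode receptors that mark activated and regulatory T cells, lie 9.71 kb apart on chromosome 4 (156013595 to 156016613 and 156026322 to 156028894). Tnfrsf4 (NCBI Gene 22163) had 20.8, 23.4 and 25.3 FPKM in controls and 36.5, 19.8 and 24.0 in ultrasound libraries. Tnfrsf18 (NCBI Gene 21936) had 39.9, 41.5 and 39.4 FPKM in controls and 53.0, 46.5 and 41.4 in ultrasound libraries. Both genes were highest in ultrasound 1, and both groups overlap, for Tnfrsf18 by the narrow margin between ultrasound 3 and control 2. The log2 changes were 0.16 (95% interval -0.35 to 0.67, limma adjusted p 0.621) and 0.21 (-0.04 to 0.46, limma adjusted p 0.217). The ratio of Tnfrsf18 to Tnfrsf4 was 1.56 to 1.92 in controls and 1.45, 2.35 and 1.73 in ultrasound libraries, so the groups overlap. Foxp3, which defines regulatory T cells, had 8.78, 12.6 and 12.9 FPKM in controls and 22.5, 12.8 and 14.8 in ultrasound libraries. Foxp3, Il2ra and Ikzf4 were highest in ultrasound 1, but the other 4 genes of that marker list were not: Ikzf2 was highest in control 2, Cd40lg in control 3, and Cd4 and Zbtb7b in ultrasound 3. Ikzf2, a further regulatory T cell gene, had 5.65, 7.93 and 5.78 FPKM in controls and 6.20, 3.08 and 2.92 in ultrasound libraries. The 7 regulatory and CD4 T cell markers summed to 79.7 to 115 FPKM in controls and 124, 110 and 142 in ultrasound 1, 2 and 3, with Cd4 the largest term in each library. Their part in the levels of Tnfrsf4 and Tnfrsf18 was not tested.

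Tnfrsf9 (NCBI Gene 21942; chromosome 4, 150920155 to 150946104) encodes 4-1BB, a receptor that appears on CD8 T cells after antigen contact. It differed least of the 10 genes, with 11.4, 12.6 and 10.01 FPKM in controls and 13.2, 10.5 and 10.7 in ultrasound libraries. The log2 change of 0.02 had a 95% interval of -0.28 to 0.31 (limma adjusted p 0.936), and it turned negative with other scalings, at -0.08 with median-of-ratios size factors. Genes such as Tnfrsf9 are induced through NF-κB and AP-1, and its start site that held a match to the NF-κB motif is shown. The first start of Tnfrsf9 held no match to the NF-κB, AP-1 or RUNX motifs. RefSeq windows of 300 bases (250 before and 50 after a start site, GRCm38.p6) were used for 7 of the 10 genes, 8 windows in all, and the second start of Tnfrsf9, at chr4:150927749-150928048 on the plus strand, held matches to motifs of 3 factor families that none of the other 7 windows held. Capitals mark, in order, the NF-κB consensus (overlapping matches, from base -43 to -33), the AP-1 motif TGANTCA (-15 to -9) and the RUNX motif TGTGGT:

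Tnfrsf9 second start: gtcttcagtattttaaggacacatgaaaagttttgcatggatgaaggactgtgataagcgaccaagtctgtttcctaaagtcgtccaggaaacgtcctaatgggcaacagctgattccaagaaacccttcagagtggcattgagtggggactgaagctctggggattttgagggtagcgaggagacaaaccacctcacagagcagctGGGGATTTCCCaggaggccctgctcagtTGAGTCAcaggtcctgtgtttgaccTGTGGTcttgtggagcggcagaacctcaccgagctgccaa

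Both strands were searched. Of 32851 windows of all genes, 4.51% held the NF-κB consensus, 7.81% TGANTCA and 16.8% TGTGGT. The NFAT core GGAAA was in all 8 windows and in 61.3% of all windows, and 1 of its matches overlaps the NF-κB match shown. A match is a description of the letters and says nothing of binding in these cells. No window for Cd28, Icos or Cd226 was used.

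The ligand Tnfsf8 (NCBI Gene 21949; chromosome 4, 63831202 to 63861508) split the ultrasound group. It had 20.1, 21.4 and 21.2 FPKM in controls and 25.1, 14.7 and 12.1 in ultrasound libraries, so ultrasound 1 was above every control and the other two below. The log2 change was -0.32 (95% interval -0.90 to 0.25, limma adjusted p 0.371), -0.61 without ultrasound 1 (limma adjusted p 0.00204) and 0.25 in ultrasound 1 alone. Its receptor Tnfrsf8 had 1.22 to 1.73 FPKM in controls and 1.71 to 2.10 in ultrasound libraries (limma adjusted p 0.230).

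Both death ligands were low and overlapped between the groups. Fasl (NCBI Gene 14103; chromosome 1, 161780691 to 161788495), a ligand by which cytotoxic cells kill, had 4.68, 5.13 and 8.08 FPKM in controls and 5.61, 5.82 and 4.84 in ultrasound libraries. Control 3 was the highest of the 6, and without it the log2 change went from -0.09 (95% interval -0.54 to 0.36, limma adjusted p 0.758) to 0.12. Tnfsf10 (NCBI Gene 22035; chromosome 3, 27317077 to 27339665) had 5.91, 7.17 and 6.76 FPKM in controls and 6.38, 5.45 and 4.56 in ultrasound libraries. Its log2 change was -0.24 (95% interval -0.56 to 0.08, limma adjusted p 0.252), and -0.34 without ultrasound 1 (limma adjusted p 0.0341). Fasl rested on 320 to 552 reads per library and Tnfsf10 on 859 to 1242. The receptor Tnfrsf10b fell, from 3.54 ± 0.19 to 1.77 ± 0.43 FPKM (SD, n = 3 each; log2 change -0.72, limma adjusted p 0.0326), with 3.32, 3.66 and 3.66 FPKM in controls and 2.27, 1.55 and 1.49 in ultrasound libraries. That call was lost when the libraries were centred on the T cell markers (log2 change -0.67, limma adjusted p 0.0836), and when any single control, ultrasound 2 or ultrasound 3 was left out (0.0613 to 0.160). The receptor Fas was level, with 10.2 to 11.4 and 10.9 to 12.6 FPKM (log2 change 0.10, 95% interval -0.12 to 0.33, limma adjusted p 0.456).

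**Figure D4:**
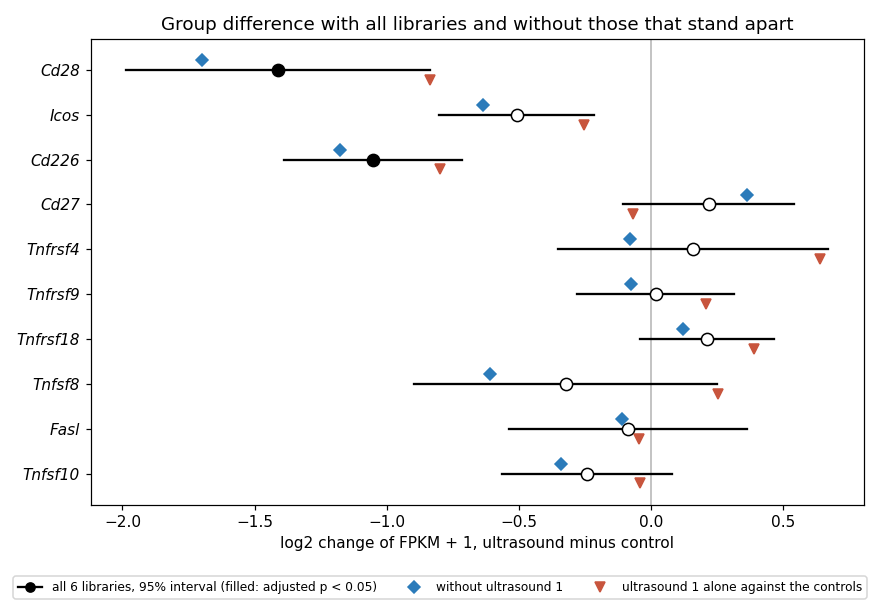
Log2 change of FPKM + 1 between the groups for the 10 genes with 95% intervals (black; filled circles passed an adjusted p of 0.05), without ultrasound 1 (blue diamonds) and for ultrasound 1 alone against the controls (red triangles). Cd28, Icos, Cd226, Fasl and Tnfsf10 lie below 0 in all 3 analyses, while Cd27, Tnfrsf4, Tnfrsf9 and Tnfsf8 lie on opposite sides of 0 without ultrasound 1 and in ultrasound 1 alone.

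Without ultrasound 1, 6 of the 10 genes passed: Cd28, Icos, Cd226, Tnfsf8 and Tnfsf10 lower and Cd27 higher. That fit called 53.7% of all tested genes (34.1% of all tested genes higher and 19.7% lower) and rests on 2 ultrasound libraries that resemble each other. In ultrasound 1 alone against the controls, Cd226 alone passed, where 0.178% of all genes were called lower. In the authors' deposited table q is under 0.05 for Cd28, Icos and Cd226, all lower, and from 0.123 to 0.869 for the other 7.

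Ordered by mean FPKM in controls, the 10 genes ran Cd27 (109), Cd28 (63.7), Tnfrsf18 (40.3), Icos (24.1), Cd226 (24.0), Tnfrsf4 (23.2), Tnfsf8 (20.9), Tnfrsf9 (11.3), Tnfsf10 (6.61) and Fasl (5.97). The control ranges of neighbours overlap for Icos and Cd226, Cd226 and Tnfrsf4, Tnfrsf4 and Tnfsf8, and Tnfsf10 and Fasl. In the ultrasound group Cd28 stood in place 4 rather than 2 and Cd226 in place 8 rather than 5. Cd27 stayed first. Averaged over the 6 libraries, Cd27 exceeded 95.9% of tested genes in FPKM, Cd28 86.4% and Fasl 32.9%.

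The genes whose 6-library profile was most like that of Cd28, by the mean absolute difference in centred log2(FPKM + 1), were Trp53inp2, Spty2d1 and Odc1, with differences of 0.08, 0.08 and 0.09. Odc1, the first enzyme of polyamine synthesis, went from 163 to 178 FPKM in controls to 94.3, 48.5 and 41.5 in ultrasound 1, 2 and 3. Those most like Cd27 were Ppp1r18, Xrcc1 and Ptdss2, each at a difference of 0.02. Xrcc1, a DNA repair scaffold, had 11.4 to 12.8 FPKM in controls and 11.6, 15.7 and 16.4 in ultrasound libraries.

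The ligands and receptors that pair with the 10 genes were mostly lower in abundance. Of 12 listed, 11 were in the table and 8 were tested, and 1 was called, Tnfrsf10b, where 8.11% of all tested genes were called. Cd80, a Cd28 ligand of antigen-presenting cells, had 1.73, 0.847 and 0.864 FPKM in controls and 2.81, 2.505 and 2.16 in ultrasound libraries, with no overlap between the groups (log2 change 0.72, limma adjusted p 0.0572). Cd86, the other Cd28 ligand, had 9.48 to 13.1 and 11.7 to 15.2 FPKM (limma adjusted p 0.203). Icosl had 17.7, 9.86 and 11.6 FPKM in controls and 14.9, 31.8 and 27.5 in ultrasound libraries (limma adjusted p 0.127). Icosl followed the B cell markers in being high in ultrasound 2 and 3, and Cd80 the monocyte and macrophage markers in being high in all 3. The part of those cells was not tested. Tnfsf9 (1.43 to 2.77 and 1.53 to 2.34 FPKM, limma adjusted p 0.921) and Pvr (9.21 to 9.71 and 6.96 to 9.63 FPKM, limma adjusted p 0.303) overlapped between the groups. Tnfsf4, Tnfsf18 and Nectin2 were too low to be tested, and Tnfsf4 had 0.669 to 1.39 FPKM in controls and 0.116 to 0.459 in ultrasound libraries on 7 to 79 reads. Tnfsf18 and Nectin2 did not exceed 0.206 and 0.214 FPKM in any library.

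Of 21 related receptors and ligands, 4 rose and none fell, where 6.55% of all tested genes were called higher. The authors' deposited table also has Crtam and Slamf6 of this list lower, with log2 fold changes of -0.51 and -0.36 and q of 0.00578 and 0.000317, where limma gave -0.38 and -0.23 with adjusted p of 0.0968 and 0.106. For both, as for Ctla4, every ultrasound library lay below every control, as it did for 8.96% of all tested genes. The 4 genes that rose were Ltbr, the lymphotoxin receptor of myeloid and stromal cells, Cd244a, a receptor of NK cells, myeloid cells and some CD8 T cells, and both receptors of TNF. Ltbr had 3.94, 1.89 and 1.87 FPKM in controls and 9.82, 6.68 and 11.9 in ultrasound libraries (log2 change 1.57, limma adjusted p 0.0311). Cd244a had 4.19, 1.87 and 1.67 and 7.50, 6.96 and 8.31 FPKM (log2 change 1.33, limma adjusted p 0.0335). Tnfrsf1a rose from 21.1 ± 1.70 to 37.5 ± 5.67 FPKM and Tnfrsf1b from 38.6 ± 4.36 to 72.8 ± 18.2 (SD, n = 3 each; limma adjusted p 0.0304 and 0.0389). For each of the 4, all ultrasound libraries lay above all controls, as they did for 25.9% of all tested genes. The same held for 8 of 10 monocyte and macrophage markers and 9 of 10 neutrophil markers. The part of those cells in the rises was not tested. The 4 calls were lost without control 2 or 3 or ultrasound 2 or 3, and that of Tnfrsf1b also without control 1. With median-of-ratios size factors those of Cd244a and Tnfrsf1b were lost (limma adjusted p 0.0512 and 0.0609). With voom that of Tnfrsf1b was lost (adjusted p 0.0626).

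**Figure D5:**
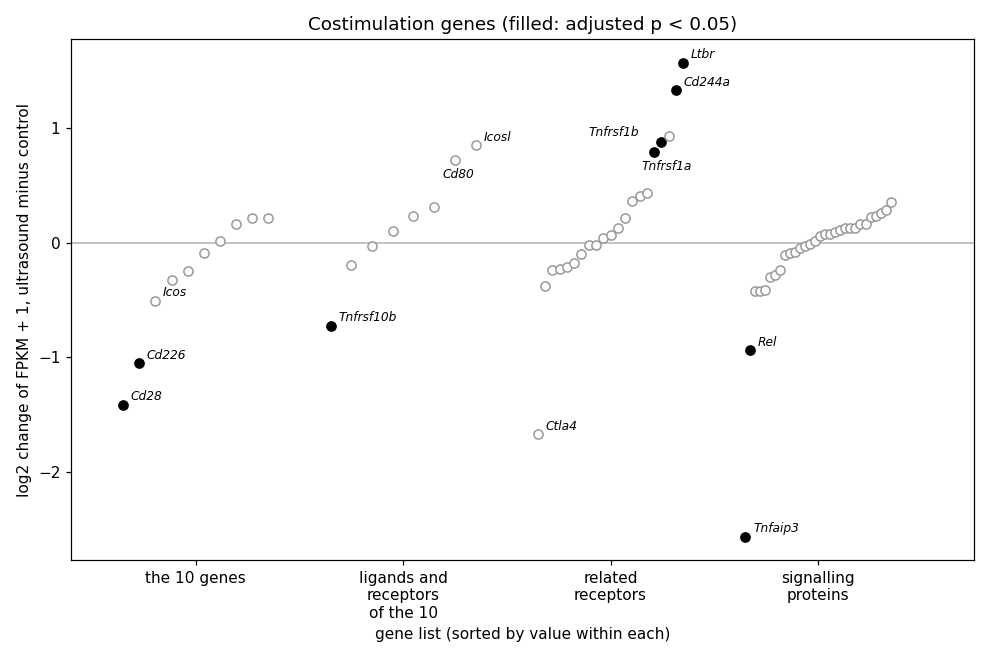
Log2 change of FPKM + 1, ultrasound minus control, for the 10 genes and the tested members of 3 further lists; each circle is a gene, and filled circles passed an adjusted p of 0.05. Ltbr, Cd244a, Tnfrsf1a and Tnfrsf1b are filled above 0, and Cd28, Cd226, Tnfrsf10b, Rel and Tnfaip3 below 0.

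Of 30 signalling proteins that act downstream of these receptors, Rel and Tnfaip3 fell, none rose and 28 did not pass. Across all tested genes 8.11% were called, 6.55% higher and 1.56% lower. Rel encodes c-Rel, an NF-κB subunit activated through Cd28. It had 24.9, 21.9 and 19.0 FPKM in controls and 14.1, 9.68 and 9.48 in ultrasound libraries (log2 change -0.94, standard error 0.17, limma adjusted p 0.0322). Tnfaip3, which encodes the NF-κB feedback inhibitor A20, had 388, 395 and 390.3 FPKM in controls and 190.4, 32.9 and 44.4 in ultrasound libraries, and fell by 2.56 on the log2 scale (limma adjusted p 0.0487). For both genes ultrasound 1 lay between the controls and the other two. Both calls were lost when the libraries were centred on the T cell markers (log2 changes -0.88 and -2.51, limma adjusted p 0.0734 and 0.0660). They were also lost when any single control, ultrasound 2 or ultrasound 3 was left out. That of Tnfaip3 was lost with median-of-ratios and upper-quartile factors as well (limma adjusted p 0.0579 and 0.0519). The other NF-κB subunits Nfkb1, Nfkb2, Rela and Relb had log2 changes of 0.29, -0.03, 0.16 and 0.11, with limma adjusted p of 0.197, 0.830, 0.223 and 0.488. The TRAF adaptors Traf1, Traf2, Traf3, Traf5 and Traf6 ranged from -0.09 to 0.13, with limma adjusted p of 0.589 or more.

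The pathway annotation of the authors' deposited table places Cd27, Tnfrsf4, Tnfrsf9, Tnfrsf18, Tnfsf8, Fasl and Tnfsf10 under cytokine-cytokine receptor interaction and Cd28, Icos and Cd226 under cell adhesion molecules. In the first, 20 of the other 109 tested genes were called higher and 3 lower, and in the second 7 of the other 73 were called higher and 0 lower by limma. Across all tested genes 6.55% were called higher and 1.56% lower.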

How the data were processed

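RNA-seq of 6 libraries of sorted mouse spleen CD8 T cells was used, 3 per group, with groups and numbers from the sample titles. The submitters' processing notes name HISAT2, HTSeq, DESeq2, R 3.2.0 and the build mm10 (GRCm38) without their roles. Per the file headers, the authors deposited FPKM per library, a signal column set of mean normalized counts, a fold ratio with its log2, and p-value and q-value columns.

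The deposited table has no count columns, so limma 3.58.1 (trend, robust, R 4.3.3) was run on log2(FPKM + 1), a scale that understates the change of a low gene, with two-sided p-values. FPKM and the authors' group means together gave whole reads: of 52696 values between 0.5 and 500 reads, 100% lay within 0.05 of a whole number. Both steps were tested on simulated data. In the simulation for limma no library stood apart as ultrasound 1 does, so it does not cover that case. Summaries and plots were made in Python 3.11.15 (pandas 2.3.3, numpy 2.4.6, matplotlib 3.10.9).

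Genes named are the 10 genes, their listed ligands and receptors, Ctla4, Tigit, Cd96, called genes of 2 further lists, markers, and the 3 nearest profiles of Cd28 and Cd27. The NF-κB subunits and TRAF adaptors were named after their values were seen. The 10 genes and the lists were chosen with earlier results of these data known. The deposited filtered table, a subset of the full one, and the listed genes Cd70 and Trac were not used here. Alternatives covered scaling, pseudocount, filters, the robust option, a replicate block, libraries left out, voom, the authors' values and the threshold.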

Additional observations from a re-analysis of the deposited data

How the results depend on the processing

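With all 6 libraries, limma called 864 genes, 2 of the 10 genes and 7 of 59 other costimulation genes. With median-of-ratios scaling these counts were 437, 2 and 4, with centring on CD8 T cell markers 1110, 2 and 4, with voom 568, 3 and 6, and at an adjusted p under 0.1 they were 1962, 3 and 11. The authors' deposited table has 2179, 3 and 13 such genes by its q. For the other costimulation genes the split was 4 higher and 3 lower with limma and 5 and 8 in the authors' table. The split of all calls was 698 higher and 166 lower, 293 and 144 with median-of-ratios size factors, 318 and 250 with voom and 1061 and 49 with T cell centring. The median log2 change of all genes went from 0.09 to -0.03 with voom. Limma without a filter gave 0, 0 and 0, with 4216, 3 and 18 at an unadjusted p under 0.05. Leaving out a library gave 0 to 5727, 0 to 6 and 0 to 31. An unadjusted p under 0.05 was held by 3 or 4 of the 10 genes without control 2, control 3, ultrasound 2 or ultrasound 3. In the same fits it was held by 1962 to 2154 of all 10655 tested genes. The adjusted counts were 0 in each of those fits and highest without ultrasound 1. Without control 1 they were 567, 1 and 4, and without ultrasound 2 and 3 together 49, 1 and 1. The causes were not tested.

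Whether the replicate numbers pair the libraries is not settled. The correlation of deviations from the group means between libraries of the same number was -0.04, 0.05 and 0.06. Ultrasound 1 correlated best with control 2. Deviations from means of 3 libraries, 1 of which stood apart in the ultrasound group, cannot tell whether same-numbered libraries were handled together. With the replicate block limma called 0, 0 and 0, with 3249, 3 and 17 at an unadjusted p under 0.05.

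Cd28, Icos, Cd226, Tnfrsf18 and Tnfsf10 kept their direction under all 17 alternatives. The changed filters, the robust option and the replicate block leave the log2 change itself as it was, so no direction could turn there. Tnfrsf18 came as near 0 as 0.09 and Tnfsf10 as near as -0.04. Directions turned for genes that had not passed: Tnfrsf9 to -0.0810 (median-of-ratios), -0.0712 (upper quartile), -0.11 (voom) and -0.10 (the authors' deposited table). With a library left out, Tnfrsf9 ran from -0.0784 to 0.0893, Tnfrsf4 from -0.0806 (without ultrasound 1) to 0.345 and Fasl from -0.2205 to 0.118 (without control 3). Without ultrasound 2 and 3, Cd27 was at -0.0699 and Tnfsf8 at 0.25. The effect of depth on these values was not tested.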
